A study of Mus musculus with 8 samples.

Results

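The regions described here lie beside sites bound by FOS, which forms the AP-1 transcription factor with JUN, in microglia sorted from mouse cortex. They were chosen by the peak calls of the table itself: each was a region of an IL-33 list, held no FOS peak, and had its centre 2000 bp or less from the centre of the nearest FOS region, on mm10. Under this rule 932 of the 32773 regions in the deposited table were flanking regions, out of 1300 regions found on the IL-33 list alone and 2848 that carried an IL-33 list peak. The remaining 368 regions of the IL-33 list alone are called away regions. Regions with a peak of both lists, 1548 in number, are called shared, and the 29925 others are called FOS-only.

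Chromatin immunoprecipitation and sequencing for FOS, which maps where on the genome a protein sits, was run on microglia of 4 mice. All 4 were at postnatal day 30 and had IL-33, an alarm cytokine of the interleukin-1 family, injected into a brain ventricle on 1 side 4 h before death. The cells were enriched on a Percoll gradient and collected by flow sorting, and each mouse gave 1 FOS library and 1 input library. Every mouse thus carried the injection and the IL-33, and no vehicle-injected library was used here. The sources used here do not give the strain, the sex or the sorting gate. By its column name, the IL-33 list holds peaks for IL-33 from a comparison with vehicle. Its assay, cells and thresholds are stated in none of the sources used here, so the flanking regions are described as positions and not as sites of a known protein or mark.

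The files held 1 pooled table and no value for a single library. Depth is therefore unknown, no value has an error between mice, and intervals and tests below describe regions and cover counting error only. Peak names in either list close with a number, 1 to 4, here named the calls of the peak, and no source used here says what it counts. FOS regions also carried a score, likewise without a stated scale, so it was used only to rank and describe regions within this table. In shared regions it was restored from an average that the authors' merge had diluted with zeros.

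AP-1 is a dimer of FOS and JUN family proteins that binds a short DNA motif and is induced quickly by cytokines and other stimuli. In microglia and other macrophages it binds enhancers, many of them also bound by the lineage factor PU.1 and by C/EBP proteins, and strong enhancers often stand in groups within or beside the gene they serve. IL-33 acts through its receptor ST2 (Il1rl1) and the adaptor MYD88, which feed the NF-kappaB and MAP kinase pathways.

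The sequences below show some of the flanking regions for which the reference held bases, that is, those lying over an annotated transcript start. RefSeq promoter windows on GRCm38.p6 run from 250 bases before to 50 bases after a start, 300 bases in all, and 15 of 32851 windows overlapped a flanking region. Of these, 14 belonged to long noncoding RNAs and 1 to a coding gene, while long noncoding RNAs made up 35.3% of all windows. Capitals mark matches, on either strand, to the AP-1 motif TGANTCA or the PU.1 motif GAGGAAGT, with N any base. The first window, of the noncoding gene Gm34606 at chr17:26534676-26534975 on the plus strand, lay wholly in the flanking region beside the highest-scoring FOS region of the table. The Gm34455 window at chr17:26504298-26504597 on the minus strand lay wholly in the flanking region near Dusp1, which encodes a MAP kinase phosphatase. The last 2 are windows of different starts of Gm32287, near Cebpb, both on the minus strand. One, at chr2:167776205-167776504, overlapped a flanking region by 296 bases. The other, at chr2:167777365-167777664, lay wholly in a FOS region of 4 calls with a score of 68.3 that had a flanking region of its own.
Gm34606: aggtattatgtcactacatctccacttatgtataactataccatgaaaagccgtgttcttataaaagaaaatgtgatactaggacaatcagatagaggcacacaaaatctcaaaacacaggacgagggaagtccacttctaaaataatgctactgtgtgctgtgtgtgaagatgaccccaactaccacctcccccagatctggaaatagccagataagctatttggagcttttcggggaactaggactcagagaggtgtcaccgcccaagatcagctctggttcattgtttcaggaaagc
Gm34455: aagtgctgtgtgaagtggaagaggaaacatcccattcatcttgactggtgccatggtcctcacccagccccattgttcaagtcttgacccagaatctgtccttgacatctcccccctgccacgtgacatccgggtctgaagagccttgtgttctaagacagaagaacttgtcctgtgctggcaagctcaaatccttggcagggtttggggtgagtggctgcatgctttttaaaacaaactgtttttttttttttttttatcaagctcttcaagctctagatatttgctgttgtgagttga
Gm32287, in the flanking region: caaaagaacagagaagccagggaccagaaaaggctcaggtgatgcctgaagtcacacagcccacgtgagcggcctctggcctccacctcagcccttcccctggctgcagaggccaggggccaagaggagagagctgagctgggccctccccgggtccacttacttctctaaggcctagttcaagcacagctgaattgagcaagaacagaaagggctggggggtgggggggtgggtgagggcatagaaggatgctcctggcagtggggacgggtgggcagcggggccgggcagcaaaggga
Gm32287, in the FOS region: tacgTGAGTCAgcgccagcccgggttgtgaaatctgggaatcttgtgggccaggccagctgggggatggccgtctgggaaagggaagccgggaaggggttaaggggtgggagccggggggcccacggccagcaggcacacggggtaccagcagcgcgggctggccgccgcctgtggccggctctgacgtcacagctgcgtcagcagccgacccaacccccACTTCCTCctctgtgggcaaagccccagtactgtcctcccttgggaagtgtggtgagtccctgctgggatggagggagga

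The motif letters were found in few of these windows. An AP-1 match was in 1 of the 15 windows over flanking regions, in 3 of 15 windows over their nearest FOS regions and in 7.81% of all windows. The PU.1 letters were in 1 of 15, 2 of 15 and 3.20% in the same order, and the C/EBP motif TTGCNNNAA was in 2 of 15, 2 of 15 and 9.56%. The 2 PU.1 windows over FOS regions, of Gm32287 and Gm14321, overlap on opposite strands and hold the same 1 site. The windows are thus not independent. Those over nearest FOS regions covered 13 regions, and the Gm2885, Gm29942 and Gm33767 windows also overlapped a flanking region. A motif of NF-kappaB was in 0 of 15, 0 of 15 and 0.411%. The Gm32287 window in the FOS region held both an AP-1 and a PU.1 match, and the AP-1 match lay 117.5 bp from the centre of that FOS region. Windows over regions at starts are a small and particular subset of the 932, so these counts describe those windows alone.

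Flanking regions stood close to FOS. The distance between centres had a median of 789 bp, with quartiles of 621 and 1145 bp and a range of 387 to 1995.5 bp. These distances are what the rule selected on and carry no test. The rule sets the upper end, and the merge sets the lower end, since peaks that overlap a FOS peak became shared regions. Between these ends, 71 regions (7.62%) lay at 500 bp or less, 557 (59.8%) at 500 to 1000 bp, 190 (20.4%) at 1000 to 1500 bp and 114 (12.2%) at 1500 to 2000 bp. The lower-coordinate side of FOS had 462 regions at a median of 807 bp, and 470 were on the higher-coordinate side at a median of 774 bp. The gap between the edges of a flanking region and its FOS region ran from 1 to 1575 bp, with a median of 290 bp, and was under 100 bp in 184 regions (19.7%).

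**Figure D1:**
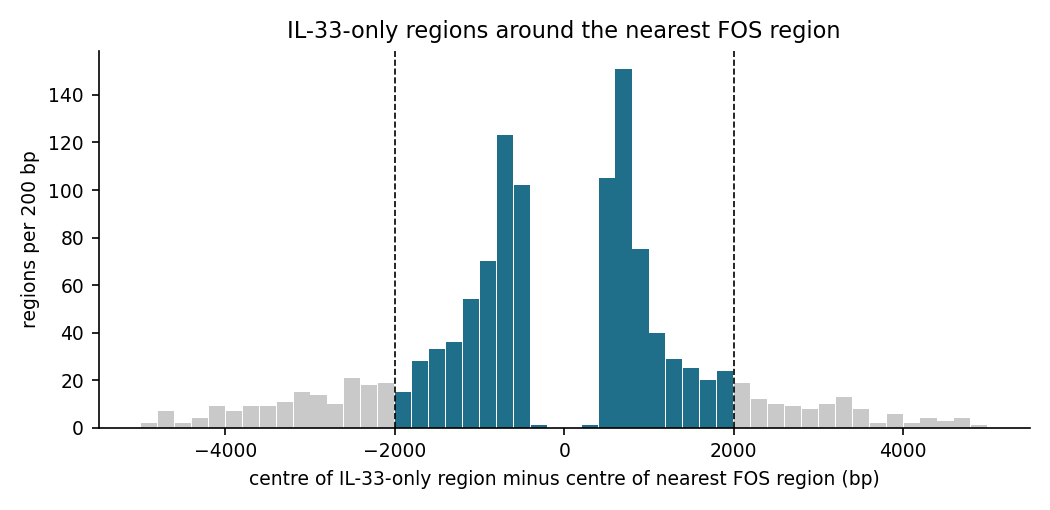
IL-33-only regions by the signed distance from the centre of the nearest FOS region in bp (x axis), as regions per 200 bp (y axis), with flanking regions in blue, away regions in grey and dashed lines at the 2000 bp limit. The flanking regions fall on both sides of FOS, 462 lower and 470 higher, and most of these lie between 500 and 1000 bp from it.

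The tail of distances continued past the limit of 2000 bp. Just inside it were a region at Pik3r5 (1988 bp from a FOS region scored 83.7), one at Ptk2b (1992 bp, 67.2) and one near Ier5 (1995.5 bp, 40.3). Just outside it were regions near Batf (2002 bp, 84.7), at Lat2 (2012.5 bp, 39.1) and near Rasgef1b (2013 bp, 35.9). The FOS scores inside and outside the limit thus covered overlapping ranges. Away regions on the main chromosomes had a median distance of 3306 bp. On the lower side, 15 IL-33-only regions lay 1800 to 2000 bp from FOS and 19 lay 2000 to 2200 bp from it. On the higher side the counts were 24 and 19. A limit of 5000 bp gave 1200 flanking regions, against 932.

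Nearly all flanking regions had the same shape. Of the 932, 890 (95.5%) were 500 bp wide and made of 1 IL-33 list peak, 39 were made of 2 peaks and 3 of 3 peaks, and the widest spanned 1296 bp. Peaks of 1 call made up 542 regions, 2 calls 380, 3 calls 9 and 4 calls 1. The share with 2 or more calls was 41.8% (Clopper-Pearson 95% interval 38.7 to 45.1), against 47.8% (42.6 to 53.1) of away regions and 72.8% (70.5 to 75.0) of shared regions. These calls come from the list that chose the regions, so the shares are given as a description.

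The nearest FOS region was itself shared for 421 flanking regions (45.2%) and FOS-only for 511. Another IL-33 list region lay within 2000 bp of 595 flanking regions (63.8%). The 421 beside a shared region are among them by definition, and an away region can have no shared region that near, so the classes are not compared on this count. Another flanking region lay within 2000 bp of 252 (27.0%). Of the 932, 102 (10.9%) stood between 2 FOS regions that were both within the limit.

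The 932 flanking regions belonged to 787 FOS regions, 440 FOS-only and 347 shared. A single flanking region accompanied 663 of the 787, 2 accompanied 107, 3 accompanied 13 and 4 accompanied 4. Flanking regions stood on both sides of 76 FOS regions (9.66%), and the closest pair across such a FOS region was a median of 1568.5 bp apart, centre to centre, with a range of 934 to 3381 bp. The 4 FOS regions with 4 flanking regions, singled out after their values were seen, lay at Fyb, Ptk2b, Adap1 and nearest to Tbl1xr1. Fyb encodes an adaptor of immune receptor signalling, Ptk2b the calcium-responsive kinase PYK2, Adap1 an ARF6 GTPase-activating protein and Tbl1xr1 a subunit of the NCoR and SMRT corepressor complexes. Their FOS scores were 130.6, 67.2, 38.6 and 43.8, and all 4 had 4 calls.

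The FOS regions with a flanking region were high in the FOS list. Their score had a median of 39.5 (quartiles 28.2 and 56.4, n = 787), against 19.9 (12.2 and 29.1, n = 30686) in the other FOS regions. Peaks of 4 calls were in 524 of the 787 (66.6%, interval 63.2 to 69.9), against 6690 of 30686 (21.8%, 21.3 to 22.3). Within 4-call regions the medians were 49.2 and 34.9. The groups differed in make-up, since 44.1% of the 787 were shared against 3.91% of the other FOS regions. Among shared regions alone, 69.5% of those with a flanking region had 4 calls against 49.2% of the others. Their median scores were 38.3 and 28.0. Among FOS-only regions the shares were 64.3% and 20.7%, and the median scores 40.6 and 19.6. The contrast was thus smaller among shared regions. Where flanking regions stood on both sides, 65 of 76 FOS regions (85.5%, 75.6 to 92.5) had 4 calls and the median score was 53.8. Since presence of a FOS peak is part of the rule, these values carry no test.

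Read from the side of FOS, 2.50% of all 31473 FOS regions had a flanking region. The share was 0.552% at 1 call, 64 of 6393 regions at 2 calls, 2.43% at 3 calls and 7.26% (interval 6.68 to 7.89) at 4 calls. With FOS regions split by score into 10 groups of equal size, it went from 0 of 3148 regions in the lowest group (interval up to 0.117%) to 369 of 3148 (11.7%, 10.6 to 12.9) in the highest, which spans scores of 40.7 to 142. It was 1.47% in FOS-only and 22.4% in shared regions. Counting FOS regions that were shared or had a flanking region gave 6.32% of all and 15.5% of those with 4 calls.

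Gene boundaries, meaning positions within 1 kb of either end of a coding gene, stood apart. A flanking region accompanied 25 of 6929 FOS regions there (0.361%, interval 0.234 to 0.532) and 762 of 24542 elsewhere (3.10%, 2.89 to 3.33). Among FOS regions with 4 calls the shares were 11 of 1198 (0.918%, 0.459 to 1.64) and 513 of 6016 (8.53%, 7.83 to 9.26). The low share at boundaries was present at each number of calls. It was not particular to flanking regions, since every class of the IL-33 list was scarce there. Near a boundary lay 3.43% of flanking, 4.09% of away and 2.78% of shared regions, against 23.0% of FOS-only regions. No test was run on these shares, since the FOS peak is part of the rule.

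**Figure D2:**
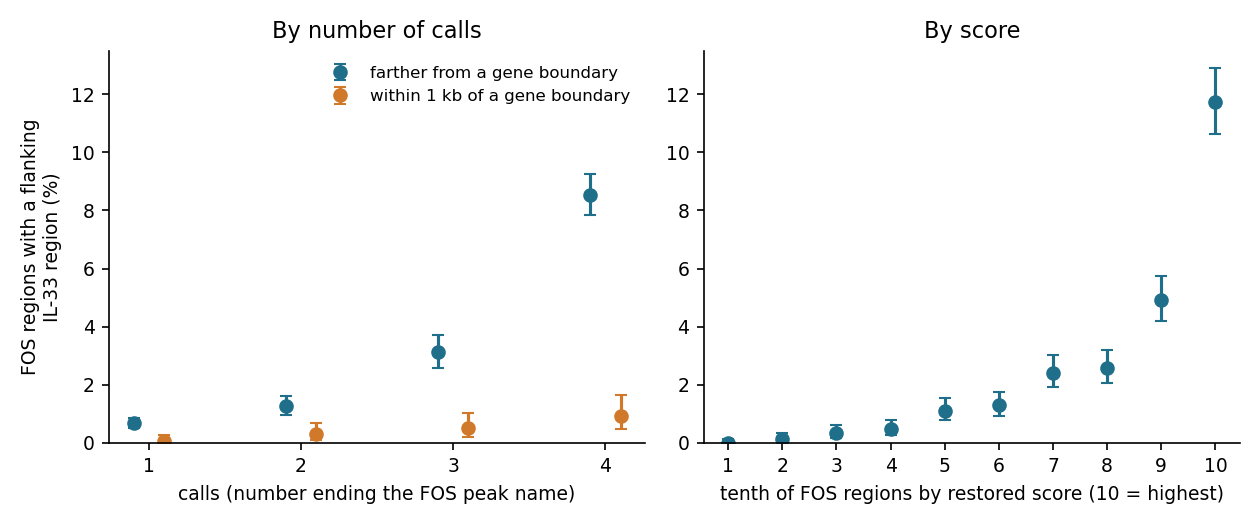
Share of FOS regions that had a flanking IL-33 region (y axis, %), by the calls of the FOS peak and distance to a coding gene boundary (left) and by 10 equal groups of the restored FOS score (right); bars are Clopper-Pearson 95% intervals. The share reaches 8.53% at 4 calls away from boundaries against 0.918% near them, and 11.7% in the highest score group.

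Flanking regions farther out stood beside FOS regions of somewhat higher score. For the 628 flanking regions at 1000 bp or less, the nearest FOS region had a median score of 38.3. It had 4 calls for 65.9% (interval 62.1 to 69.6) of these flanking regions. For the 304 flanking regions farther out the median was 48.2 and the share 75.0% (69.7 to 79.8). A FOS region with several flanking regions counts once for each and can enter both groups. The intervals treat these repeats as independent. The calls of the flanking regions went the same way, with 2 or more in 39.8% (36.0 to 43.8) of the nearer and 46.1% (40.3 to 51.8) of the farther regions, and these intervals overlap. The FOS score beside flanking regions of 1 call (median 41.0) and beside those of 2 or more calls (40.2) differed by little, and none of these values was tested.

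Position relative to genes was not used by the rule and was tested. Flanking regions lay mostly within coding genes and seldom at their ends. Inside a coding gene body were 550 of 932 (59.0%, interval 55.8 to 62.2), with 136 more outside but within 10 kb, 199 at 10 to 100 kb and 47 over 100 kb from any. Within 1 kb of a boundary were 32 (3.43%, 2.36 to 4.81), and the median distance to the nearest boundary was 17914 bp. Away regions had 230 of 367 inside gene bodies (62.7%) and 15 near a boundary (4.09%). Shared regions had 827 of 1548 inside (53.4%) and 43 near a boundary (2.78%). FOS-only regions had 59.1% inside gene bodies and 23.0% near a boundary.

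Against shared regions, flanking regions were inside gene bodies more often, by 5.59 percentage points (Newcombe 95% interval 1.55 to 9.58). The odds ratio was 1.26 and the Benjamini-Hochberg adjusted p was 0.0269 over 4 location tests, by two-sided Fisher's exact test. This call is fragile: flanking regions that share a FOS region are not independent, and with 1 flanking region kept per FOS region the odds ratio was 1.19 and the adjusted p 0.212. By the same exact test it was also lost with centres at 1000 bp or less (1.23, adjusted p = 0.115), with FOS regions of 2 or more calls only (1.22, adjusted p = 0.0961) and without regions whose edge was under 100 bp from FOS (1.25, adjusted p = 0.0551). The other 3 location tests did not pass. Inside gene bodies, flanking minus away regions by Fisher's exact test was -3.66 points (-9.41 to 2.28, adjusted p = 0.465). Near boundaries, by the same exact test, it was -0.654 points against away regions (-3.39 to 1.45, adjusted p = 0.621) and 0.656 against shared regions (-0.712 to 2.20, adjusted p = 0.529), and all 3 intervals include 0.

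**Figure D3:**
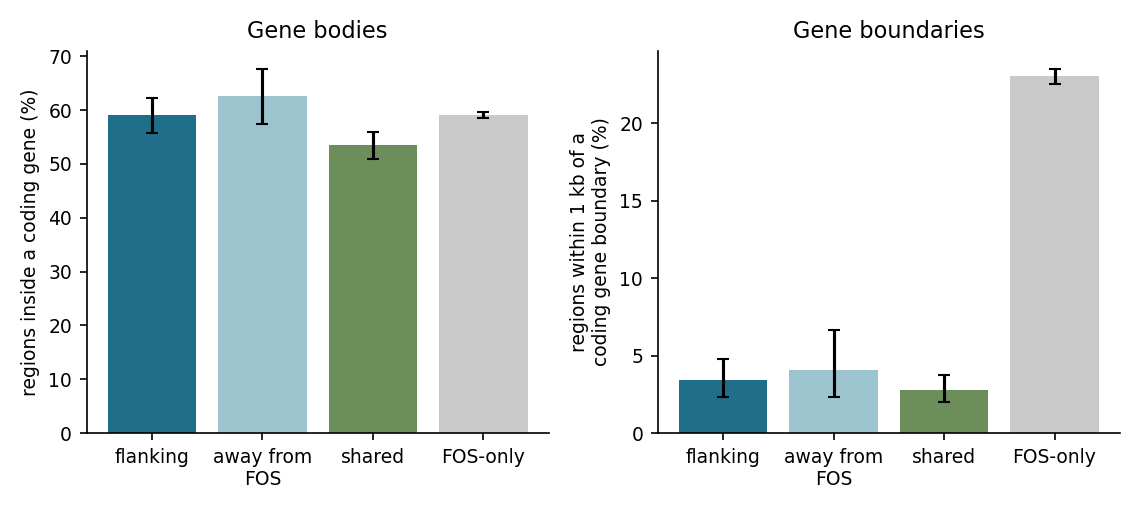
Share of regions (y axes, %) inside a coding gene body (left) and within 1 kb of a coding gene boundary (right) for flanking, away, shared and FOS-only regions; bars are Clopper-Pearson 95% intervals. Flanking regions are at 59.0% and 3.43%, beside 23.0% of FOS-only regions near a boundary.

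Each flanking region was given to the coding genes whose body held its centre, or else to the nearest within 100 kb. This gave 885 of the 932 to 554 of 21887 coding genes (2.53%). The background for the other classes was 1.11% of coding genes with an away region, 4.34% with a shared region, 5.64% with any IL-33 list region and 50.6% with a FOS region. Of the 554 genes, 384 had 1 flanking region, 40 had 4 or more, and 355 also had a shared region, which is 64.1% of genes with a flanking region and 37.4% of genes with a shared one. For 421 of the 932 flanking regions the nearest FOS region was itself shared. Such a pair can fall to the same gene, so the rule itself favours this overlap. Long genes and genes in gene-poor stretches can collect more regions, and gene length was not adjusted for.

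The most flanking regions were at Lyn, Etv6 and Zeb2. Lyn, a SRC family kinase of myeloid and B cells, had 12, all inside the gene, at chr4:3686317-3774362. They stood 430.5 to 1951 bp from 8 FOS regions scored 29.0 to 54.9, of which 4 had 4 calls, and the gene also had 7 away and 6 shared regions. Etv6, an ETS family transcriptional repressor, had 9 inside the gene beside 7 FOS regions scored 30.6 to 72.0. Zeb2, a zinc finger factor of macrophage identity, also had 9, of which 5 were inside the gene and the farthest was 22547 bp outside.

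Genes tied to phosphoinositide 3-kinase (PI3K) in this ranking were Pik3r5 and Pik3ap1. Pik3r5, a regulatory subunit of PI3K gamma, had 8 flanking regions inside the gene, beside 5 FOS regions scored 37.3 to 116.2. Pik3ap1, the adaptor BCAP that couples receptors to PI3K, had 6 inside the gene beside 4 FOS regions scored 19.4 to 94.6. A region of 3 calls nearest to Pik3r1, another regulatory subunit, lay 139687 bp outside that gene and so was not given to it. These genes are named for their rank, and the pathway was not on a list.

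Fyb combined number and strength. It had 7 flanking regions inside the gene, at chr15:6556237-6624817, beside only 3 FOS regions. The strongest of these, at chr15:6569137-6569469 with a score of 130.6 and 4 calls, had 2 flanking regions on its lower side at 434 and 1534.5 bp and 2 on its higher side at 576 and 1777 bp. A second, shared, FOS region with a score of 54.7 had one on each side at 819 and 607 bp. Both FOS regions thus stood between their flanking regions, and the remaining one lay 610 bp from a shared FOS region scored 32.2.

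Cx3cr1, the fractalkine receptor that marks microglia, had 6 flanking regions inside the gene at chr9:120053330-120059863 and no shared region. All 6 belonged to 2 FOS regions of 4 calls, scored 98.2 and 125.9, each with flanking regions on both sides. Around the higher-scoring one they lay at 713.5 and 1448.5 bp on the lower side and 693.5 bp on the higher side. Around the other they lay at 1431.5 bp on the lower side and at 1025.5 and 1805.5 bp on the higher side. The gene had 5 FOS regions and 1 away region, so none of its 7 IL-33 list regions overlapped a FOS peak.

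**Figure D4:**
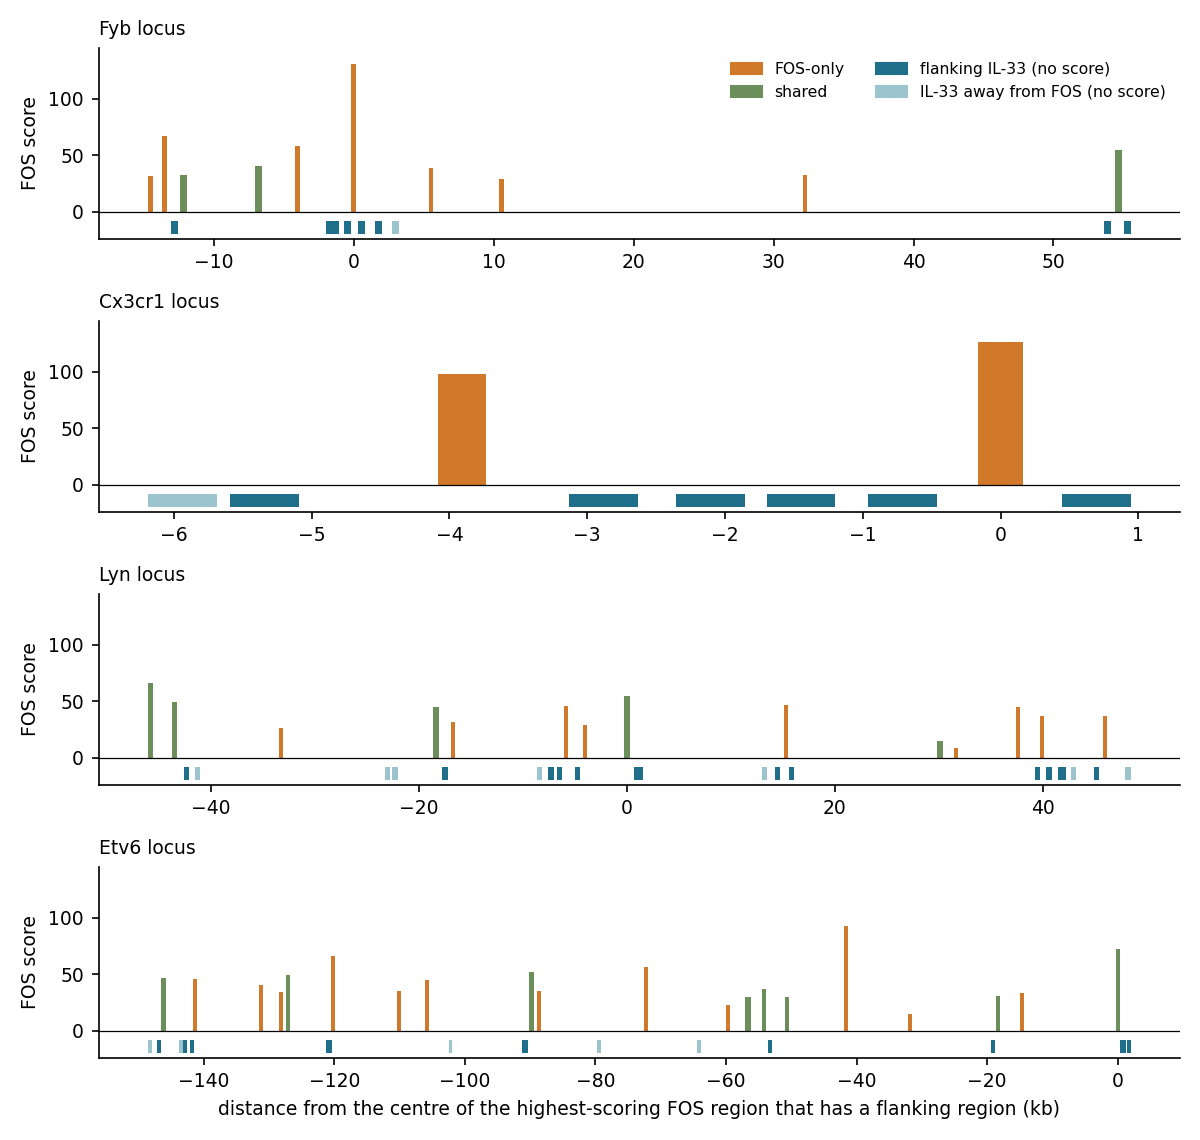
FOS-only (orange) and shared (green) regions by restored FOS score (y axis) at Fyb, Cx3cr1, Lyn and Etv6, with flanking (dark blue) and away (light blue) IL-33 regions drawn below 0 because they have no score; the x axis is the distance in kb from the centre of the highest-scoring FOS region that has a flanking region, and narrow regions are widened to stay visible. At Cx3cr1 the 6 flanking regions surround FOS regions scored 98.2 and 125.9, while at Lyn 12 are spread along the gene.

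The rest of the 10 genes with most flanking regions had 6 each. At Cebpb, a C/EBP transcription factor of myeloid cells, all 6 were outside the gene, 25646 to 86336 bp from it, beside 5 FOS regions scored 31.9 to 134.85. Hivep3, a zinc finger protein that binds kappaB-like sites, had 6 inside the gene beside 4 FOS regions scored 27.0 to 72.8. The 6 at Tg, the thyroglobulin gene, lay inside its body beside 4 FOS regions scored 21.5 to 95.3. Sla, an adaptor of immune receptors whose gene overlaps Tg, shared 5 of them and was named after its values were seen, so position alone does not assign these regions to either gene.

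The 10 flanking regions beside the highest FOS scores stood at or nearest to 5 genes. The top one, with a score of 142 and 4 calls, was nearest to Ergic1, a membrane protein of the early secretory pathway, and lay beside the flanking region that holds the Gm34606 start printed above. That flanking region, at chr17:26534609-26535109, was 595.5 bp away on the lower side, had 2 calls and stood 25903 bp outside Ergic1. Dusp1, which ends at chr17:26508472 on the other side, was almost as near, so position alone does not assign the region to either gene. Next came the FOS region scored 134.85 near Cebpb, with a flanking region 1987 bp away, then those of Fyb and Cx3cr1 above. Near C3ar1, the receptor for the complement fragment C3a, a FOS region scored 121.8 had a flanking region 862 bp away and 7843 bp outside the gene.

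The 10 flanking regions with most calls were led by one at Rab20, a small GTPase of endosomes and phagosomes. It had 4 calls and lay 1152 bp from a shared FOS region scored 59.7. The other 9 had 3 calls, at Ctif, Septin9, Tnfrsf8 (the receptor CD30), Taok3, Cx3cr1, Vps8, Ptk2b and Rassf2 and nearest to Pik3r1, at 655 to 1774.5 bp. All 10 nearest FOS regions had 4 calls, with scores from 25.1 at Septin9 to 98.2 at Cx3cr1.

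Genes of pathways and cell types were read from 20 lists with 467 entries, 12 lists of pathways and microglia and 8 of other cells. A coding gene was matched by 464 entries, 449 different genes in all, and 48 of the 449 had a flanking region. The NF-kappaB pathway list had 7 of 21 genes (33.3%), against the 2.53% of all coding genes. They were Nfkb1, the precursor of the p50 subunit, the inhibitor Nfkbia and its relative Nfkbiz, and the ubiquitin-editing enzyme Tnfaip3 (A20) and its partner Tnip1. The others were Birc3 and Traf1 of TNF receptor signalling. All 7 also had a shared region. A shared region was given to 9 of the 21 (42.9%), against 4.34% of all coding genes, and all 21 had a FOS region. The high share is thus not particular to flanking regions. Nfkb1 had 2 flanking regions inside the gene, on both sides of a single FOS region scored 74.2, at 976.5 and 1827.5 bp. Tnfaip3 had 3, spread from inside the gene to 84415 bp outside it. Nfkbia had 3, at 1299 to 21531 bp outside the gene, and neither of its nearest FOS regions had 4 calls.

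Genes that encode AP-1 itself and its relatives were also on the map, 4 of 20. Fos had 1 flanking region, 56476 bp outside the gene and 1008 bp from a FOS region scored 85.9. Batf, an AP-1 partner of immune cells, had 1 inside the gene, beside a FOS region scored 56.8. Batf3 and Nfe2l2 (NRF2, of the oxidative stress response) had 1 each, beside FOS regions scored 36.9 and 62.0. Immediate early genes, which respond within minutes, had 5 of 30, namely Dusp1, Dusp2, Ier5, Klf4 and Klf6. The zinc finger factor Klf6 had 3, at 56051 to 59066 bp outside the gene, beside FOS regions scored 47.9 and 53.1. Dusp1 had 1, 1237 bp outside the gene and 1249 bp from a FOS region scored 63.6, which is the region over the Gm34455 start printed above.

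Secreted ligands came next. Cytokines and chemokines had 6 of 35, the chemokines Ccl4 and Ccl5, the cytokines Il1b, Il12b and Csf1 and the ligand Tnfsf9 (4-1BBL). At Il1b, which encodes interleukin-1 beta, the flanking region stood 10586 bp outside the gene and 733.5 bp from a FOS region scored 57.3. Ccl4 had 1 inside the gene as annotated here, 1570.5 bp from a FOS region scored 57.1. Ccl5 had 2 beside a single FOS region scored 49.9, at 1196 and 1771 bp.

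Receptors of microbial products had 6 of 39, with Cd14, the lipopolysaccharide co-receptor, having 3. These lay 4492 to 10239 bp outside Cd14, with 1 on each side of a FOS region scored 63.6 at 475 and 459 bp, and the gene had no shared region. Marco, a scavenger receptor, had 2, and Tlr1, Nod1, Nod2 and Stab1 had 1 each. Downstream of such receptors and of ST2, the IL-33 and MYD88 list had 2 of 21, the kinases Irak2 and Map3k8 (TPL2). Irak2 had 2 flanking regions inside the gene and no shared region, beside FOS regions scored 33.7 and 67.2. The MAP kinase list also had 2 of 21, Map2k6 with 3 and Mapkapk2 with 2. For both lists the interval, 1.17 to 30.4%, includes the 2.53% of all coding genes. Il1rl1, which encodes ST2, was not among the genes with a flanking region.

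Markers of microglial state were represented on both sides. Homeostatic microglia had 5 of 31, Csf1r, Cx3cr1, Sall3, Selplg and Tgfbr2. Csf1r, the receptor for microglial survival ligands, had 2 inside the gene, 492 and 536 bp from FOS regions scored only 21.9 and 22.7, although the highest FOS score at the gene was 104.9. Activated microglia had 5 of 33, Cd83, Ch25h, Csf1, Itgax and Lilrb4a. Cd83, an immunoglobulin family marker of activation, had 5, on both sides of each of 2 FOS regions scored 68.6 and 71.7 with 4 calls. Phagocytosis had 3 of 31 (Dock2, Elmo1 and Stab1), complement 2 of 19 (C3ar1 and Itgax) and interferon-stimulated genes 1 of 22 (Ifitm3).

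Few markers of other cells had a flanking region, 3 of 140 (2.14%), near the 2.53% of all coding genes. Lists this short can have none at that share. A FOS region was given to 30 of 31 homeostatic microglia genes, against 50.6% of all coding genes. Lists of border-associated macrophages (0 of 13), monocytes and neutrophils (0 of 18), lymphocytes (0 of 16), type 2 innate lymphoid and mast cells (0 of 13) and astrocytes (0 of 16) had none. Single genes came from neurons (Dlg4, 1 of 30), oligodendrocytes (Mbp, 1 of 17) and endothelial and mural cells (Cldn5, 1 of 18). The FOS regions beside those at Dlg4 and Cldn5 were weak, with scores of 10.9 and 13.7 and fewer than 4 calls, while that at Mbp was scored 34.1 with 4 calls.

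Together, 45 of 310 genes (14.5%) of the 12 pathway and microglia lists and 3 of 140 (2.14%) of the 8 lists of other cells had a flanking region. The share of all coding genes was 2.53%. A FOS region was given to 281 (90.6%) of the former and 56 (40.0%) of the latter, against 50.6% of all coding genes. A flanking region needs a FOS region beside it, so the lists differed in their opportunity to have one, and their part in the counts was not tested. No list was tested for enrichment, and the lists were compiled with results of these data known.

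**Figure D5:**
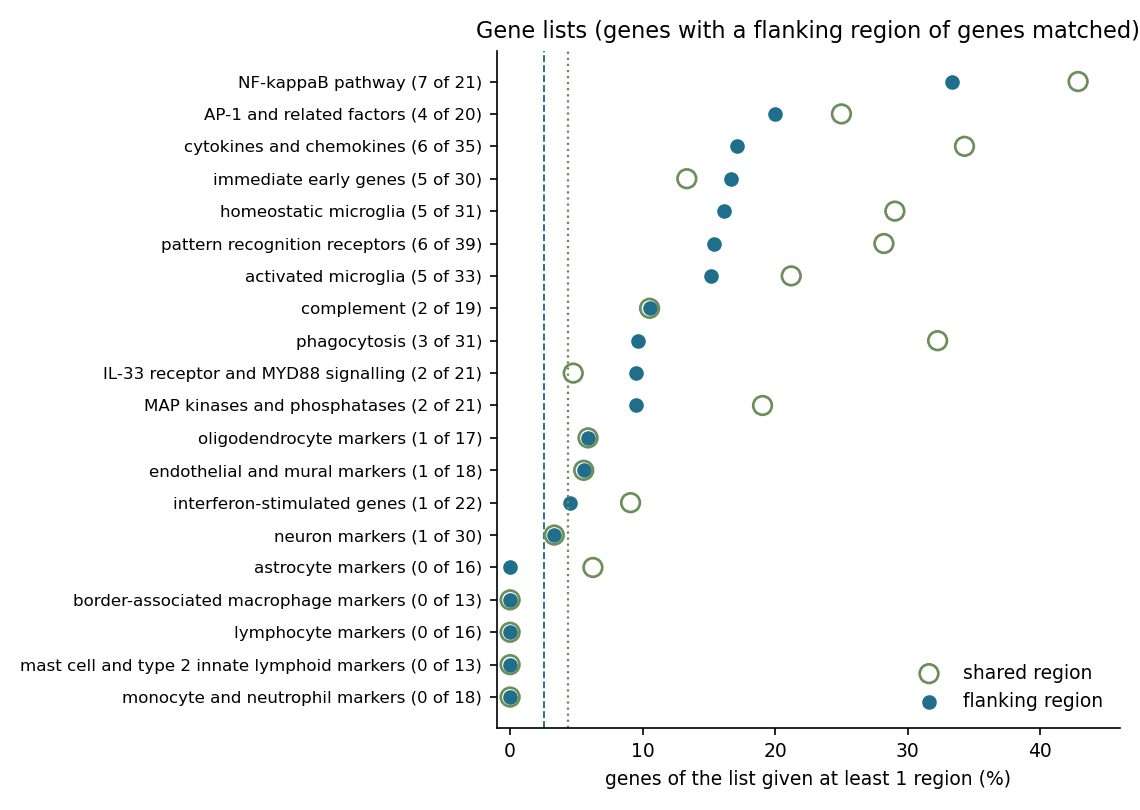
Genes of each list given at least 1 flanking region (filled) or shared region (open), in % of the genes matched (x axis), with the count for flanking regions beside each list name; the dashed and dotted lines mark all coding genes, at 2.53% and 4.34%. The NF-kappaB list is highest for both, with 7 of 21 genes for flanking and 9 for shared regions. For flanking regions, 5 lists of other cells, of 13 to 18 genes each, are at 0.

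Among microRNAs, which repress messages that match their seed, 16 of 1005 annotated hairpins (1.59%) lay within 10 kb of a flanking region. The 6 mature forms below were chosen after their values were seen, as familiar microRNAs whose hairpins had a flanking region beside a FOS region of 4 calls scored above 50. Mir6541, Mir6974 and Mir3074-2 also met that score and number of calls, at 61.1, 55.2 and 53.7, and are not printed. The seed, bases 2 to 8, is in capitals, and the sequences are from RefSeq on GRCm38.p6.
miR-146a-5p: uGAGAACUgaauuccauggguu
miR-21a-5p: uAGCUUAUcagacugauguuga
miR-22-3p: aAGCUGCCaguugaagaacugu
miR-23a-3p: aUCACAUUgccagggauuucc
miR-27a-3p: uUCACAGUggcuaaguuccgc
miR-24-3p: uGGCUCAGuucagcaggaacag

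No 2 of these 6 had the same seed. The Mir146 hairpin, source of miR-146a, which targets the IL-1 receptor pathway genes Irak1 and Traf6, lay 9290 bp from a flanking region with 2 calls, beside a FOS region scored 73.2. The Mir21a hairpin, an AP-1 target known mainly from human cells, lay 7946.5 bp from a flanking region with 1 call, beside a FOS region scored 81.0. At Mir22 the distance was 5384 bp and the FOS score 72.9. Mir23a, Mir27a and Mir24-2 form a cluster and share 1 flanking region, 5844, 6004 and 6157 bp away, beside a FOS region scored 53.7. None of these flanking regions overlapped its hairpin, and distance alone does not assign them to it.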

How the data were processed

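FOS ChIP-seq and input libraries of 4 mice went into 1 deposited table of regions on mm10. Per the file headers, the authors merged their FOS peaks with the IL-33 list using HOMER mergePeaks; Bowtie2 and HOMER are named without versions in the submitters' processing notes, and caller, thresholds and input use were not given in the sources used here. Each deposited score, averaged by the authors' merge over all peaks of a region, was multiplied by the number of merged peaks and divided by the number of FOS peaks. No column held values per library, so depth and replicate error are unknown.

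Distances between centres, shares with Clopper-Pearson 95% intervals, Newcombe intervals and 4 two-sided Fisher's exact tests with Benjamini-Hochberg adjustment at 0.05 were computed with Python 3.11.15, NumPy 2.4.6, pandas 2.3.3 and SciPy 1.17.1, after the code was tested on simulated data; figures used Matplotlib 3.10.9. Coding genes (21887 on 21 main chromosomes) came from RefSeq GRCm38.p6, a table without strand, so both gene ends served as boundaries; 3 regions off those chromosomes were left out of gene analyses. Alternatives changed the distance limit, calls, edge gap, gene set and gene distance. The named genes were the 10 with most flanking regions, those of the 10 highest nearest FOS scores and the 10 highest call numbers, list genes with a flanking region and the 3 on either side of the limit. Members, lists and tests were chosen with earlier results of these data known.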

Additional observations from a re-analysis of the deposited data

How the results depend on the processing

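Of 61 recomputed values, 8 results under 12 settings, 49 kept their direction and side of the threshold or stayed within the allowed spread. The gene-body difference from shared regions lost its call in 4 settings, with odds ratios of 1.23 (centres at 1000 bp or less), 1.22 (FOS regions of 2 or more calls), 1.25 (edges under 100 bp left out) and 1.19 (1 flanking region per FOS region); the cause was not tested. The odds ratio near boundaries against away regions, 0.834, turned to 1.04 with a 2000 bp limit on the edge gap, 1.05 with IL-33 list regions of 2 or more calls and 1.07 with all annotated genes, never past the threshold. With IL-33 list regions of 2 or more calls, 390 flanking regions at 286 genes remained by construction, and 20 FOS regions had them on both sides. That count was 39 with centres at 1000 bp or less. FOS regions with 4 calls made up 72.9% once those of 1 call were left out. No paired analysis was possible because the table has no column per library, though FOS and input libraries carry the same mouse numbers, and no mouse could be left out. Depth limits could not be given.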

Other observations

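Flanking regions were found on all autosomes, with 6 on X and 0 on Y. Chromosomes 2 and 4 held most, 79 each, and chromosome 17 had the fewest of the autosomes, 22. Per 100 FOS regions there were from 1.53 flanking regions on chromosome 17 to 4.61 on chromosome 12 among autosomes, and 0.699 on X, which had 858 FOS regions. These are given as values and were not tested.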
